A study of Mus musculus with 3 samples.

Results

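The genes described here are the cytosolic ribosomal protein genes, the Rpl and Rps genes whose products build the large (60S) and the small (40S) subunit of the ribosome outside mitochondria. They were chosen by a rule on names, set with earlier results of these data known. It took genes with a ribosomal protein symbol of the Rpl or Rps form that at least 1 array probe reaches through its RefSeq accession. Pseudogenes and the ribosomal protein kinases were left out. The rule found 84 of the 22911 named genes on the array, read by 144 probes. Of these, 43 encode proteins of the large subunit, 3 the P stalk, 30 proteins of the small subunit and 7 paralogs of such proteins, and Rpl32l was left in no group. Rps4l, which has a symbol of this form, is annotated as a transcribed pseudogene and was left out.

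Expression was measured in 3 mouse cell lines with 1 single-colour array each. Colon26 is a murine colon adenocarcinoma line, and LuM1 and NM11 are tumor lines derived from it, labelled as high-metastatic and low-metastatic respectively. The study compared LuM1 with NM11 and with parental Colon26. All 3 carry the strain label BALB/c and the label female, no genetic change or agent is named for any of them, and all were kept in RPMI1640 medium with 10% fetal bovine serum, penicillin, streptomycin and amphotericin B. RNA was taken after 3 days of culture, and the dye Cy3 was incorporated starting from 0.1 µg of it. With 1 array per line there was no replicate check and no test. A difference is therefore set beside the scanner software's own error and beside all named genes, and it describes these 3 cultures. For nearly all ribosomal protein genes that error was the same 0.20 (log2), so it acts as a fixed limit and not as a spread measured for each gene. It does not cover the scaling between arrays.

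Signals are background-corrected spot intensities in arbitrary units, scaled so that the 75th percentile of each array was 585. No spot was saturated. Between 49.9% and 53.8% of probes were well above background on an array, as the scanner flags define it. The brightness of a probe depends on its sequence, so levels are compared between lines and not between genes. The label of a colon line was set against colon epithelium markers, of which 5 of 15 in Colon26, 6 in LuM1 and 5 in NM11 were well above background. Their summed signal was 1269, 563 and 497, and Cdh1, Krt18, Krt19, Cdx1, Vil1, Lgr5, Muc2, Slc26a3 and Cldn3 were not well above background on any array. Within each list single genes went different ways, which a sum hides. Krt20 had 651 in Colon26, 54.5 in LuM1 and 157 in NM11, while Krt8 had 28.9, 108 and 37.1. Mesenchymal markers were well above background for 10, 11 and 11 of 11 genes, with a summed signal of 372996, 346883 and 427685. Among them Col1a2 had 59896 in Colon26, 49.6 in LuM1 and 85275 in NM11. Thy1 had 5.26, not well above background, in Colon26, 19560 in LuM1 and 15416 in NM11. Leukocyte markers were well above background for 5, 6 and 5 of 8 genes, with a summed signal of 7662, 17496 and 6766, and Ptprc and Adgre1 were not well above background on any array. Cd68 had 172, 5251 and 299 in the same order of lines, while Cd3e had 628, 509 and 553. Of 5 endothelial markers, only Pecam1 was well above background. The part of other cell types in the results was not tested.

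Ribosomal proteins are made in nearly equal numbers, because each ribosome holds about one copy of most of them, and they are assembled with ribosomal RNA in the nucleolus. Their mRNAs are among the most abundant of a growing cell. Many start with a C followed by a run of pyrimidines, the terminal oligopyrimidine (TOP) motif, through which the mTOR kinase and the RNA-binding protein Larp1 control their translation. Several genes also have a paralog that is used in other tissues or conditions.

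RefSeq promoter windows of assembly GRCm38.p6, from 250 bases before to 50 bases after the annotated start, were at hand for 64 of the 84 genes, which had 76 windows. Shown here, 5′ to 3′ on the gene's strand, are the 25 bases before and the first 25 bases from the annotated start. The genes were picked by hand, with Rps18 and Rpl35 as examples with pyrimidine runs. Some genes that the results name, such as Rps14 and the paralog parents Rpl7 and Rpl36a, are not shown. Capitals mark CTTTC or CTTCC on the sense strand, letters chosen for the TOP-like runs. They were sought on both sides of the start, so a marked run before it lies outside the annotated mRNA. Other pyrimidine runs, such as the one at the start of Rps6, are not marked.

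Rps18 (chr17:33955641-33955690, minus strand): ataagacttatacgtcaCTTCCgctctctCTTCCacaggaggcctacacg
Rpl35 (chr2:39005107-39005156, minus strand): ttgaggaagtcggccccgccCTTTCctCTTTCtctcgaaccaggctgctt
Rplp2 (chr7:141447626-141447675, plus strand): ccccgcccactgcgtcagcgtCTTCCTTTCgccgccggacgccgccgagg
Rps6 (chr4:86857343-86857392, minus strand): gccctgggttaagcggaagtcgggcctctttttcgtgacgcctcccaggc
Rps2 (chr17:24720038-24720087, plus strand): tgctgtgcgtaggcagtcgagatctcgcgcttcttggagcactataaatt
Rps27 (chr3:90213624-90213673, minus strand): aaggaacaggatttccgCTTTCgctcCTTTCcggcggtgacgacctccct
Rps27l (chr9:66946061-66946110, plus strand): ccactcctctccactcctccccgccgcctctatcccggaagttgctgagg
Rps27l, further start (chr9:66946388-66946437, plus strand): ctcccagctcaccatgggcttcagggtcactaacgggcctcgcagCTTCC
Rpl22 (chr4:152325701-152325750, plus strand): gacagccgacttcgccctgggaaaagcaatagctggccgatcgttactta
Rpl22, further start (chr4:152324411-152324460, plus strand): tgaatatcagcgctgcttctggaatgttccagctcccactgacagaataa
Rpl22l1 (chr3:28805483-28805532, plus strand): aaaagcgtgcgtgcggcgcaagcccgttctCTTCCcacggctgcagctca
Rpl39 (chrX:37085198-37085247, minus strand): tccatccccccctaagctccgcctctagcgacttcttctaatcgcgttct
Rpl39l (chr16:10170203-10170252, plus strand): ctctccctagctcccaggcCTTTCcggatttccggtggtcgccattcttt
Rpl7l1 (chr17:46782632-46782681, minus strand): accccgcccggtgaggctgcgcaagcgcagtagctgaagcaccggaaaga

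Within 25 bases of the start, 34 of the 76 windows (44.7%) held CTTTC or CTTCC, against 16.5% of all 32851 windows. CTTTC was in 25% of the ribosomal protein windows and in 6.75% of all windows, and CTTCC was in 27.6% and 10.6%. Both were in 6 windows, of which 3 held them overlapping as CTTCCTTTC. The letters CCGGAAG, the core that ETS family factors bind, were sought on both strands of the whole 300 bases and found in 34.2% of the ribosomal protein windows and 8.86% of all windows. CTTCC lay within CTTCCGG, the other strand of those letters, in 2 windows near the start. TATAAA in the 40 bases before the start was in 1.32% and 2.31%. A C at the annotated start, where a TOP motif begins, was in 28.9% of the ribosomal protein windows and 16.3% of all windows. A match is a description of the letters and no proof of a site. The 33 measured genes with CTTTC or CTTCC in a window near the start had a median log2 ratio, LuM1 to Colon26, of -0.44, and the 29 without had -0.55. Genes with other pyrimidine runs, such as Rps6, count as without, so this split does not separate TOP genes from others. For CCGGAAG the values were -0.58 in 25 genes with it and -0.44 in 37 without it.

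Ribosomal protein transcripts were read by some of the brightest probes of each array. In all 3 lines, 82 of the 84 passed the scanner's rule for well above background. The signal of the 84 genes lay at a median percentile of 99.5 in Colon26, 99.5 in LuM1 and 99.5 in NM11 among all named genes. The median signal over the 84 genes was 129396 in Colon26, 90839 in LuM1 and 133593 in NM11. Together the genes gave 14.3% of the summed signal of all named genes in Colon26, 12% in LuM1 and 13.8% in NM11. They were 40, 33 and 37 of the 100 brightest genes in the same order. Rps18, a protein of the small subunit head, had 326123 in Colon26, 261386 in LuM1 and 306698 in NM11. Thus the summed share and the number among the 100 brightest were lowest in LuM1. The median percentile lay so near its upper limit that it could hardly show a shift.

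**Figure D1:**
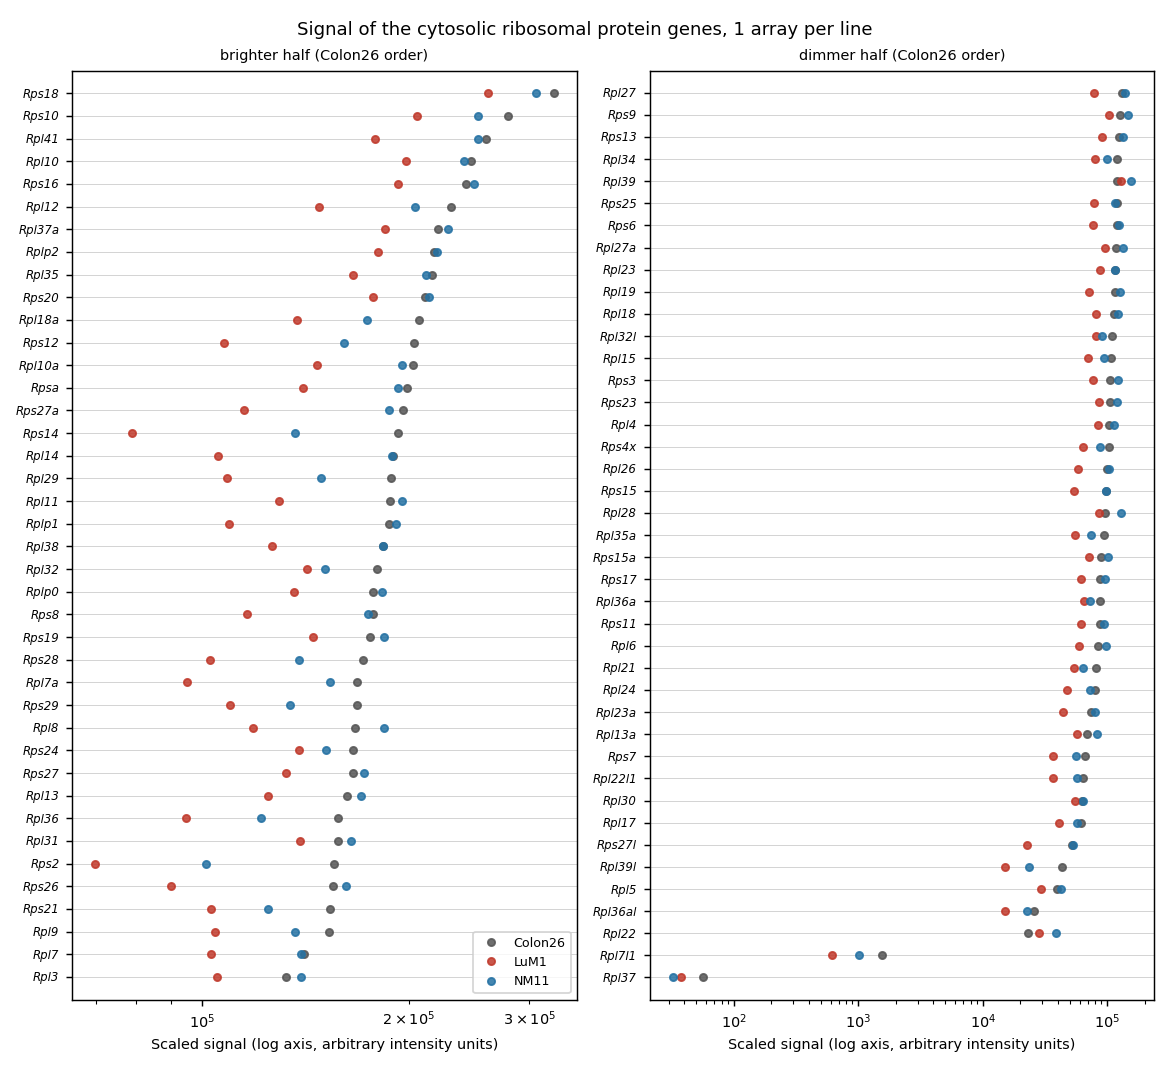
Scaled signal of 81 ribosomal protein genes that were well above background on all 3 arrays, on log axes that differ between the panels, ordered by the Colon26 signal. Points are single arrays of Colon26 (grey), LuM1 (red) and NM11 (blue), and there are no error bars because each line had 1 array. The LuM1 point lay left of the Colon26 point for 79 of the 81 genes drawn, with Rpl22 and Rpl39 as the exceptions.

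LuM1 cells had lower signals of nearly all ribosomal protein genes than Colon26 cells, by a modest amount whose size depends on the scaling between arrays. On the log2 scale the median ratio of LuM1 to Colon26 was -0.53, a linear ratio of 0.695, with quartiles of -0.74 and -0.33. Below 0 lay 80 of 82 genes, against 51 of 82 with the authors' processed values and 54 of 82 after quantile normalization. Over all 12397 named genes measured in both lines the median was -0.13, so the difference of the medians was -0.39 (log2). The shift was wide but shallow. At least 2-fold lower were 5 of 82 genes (6.1%), namely Rpl39l, Rpl7l1, Rps14, Rps27l and Rps2, against 11.8% of all named genes, and none was at least 2-fold higher, against 13.1%. By more than the scanner error, 76 of 82 were lower, against 44.6% of all named genes, and only Rpl22 was higher, against 30.3%. At a threshold of 1.5-fold, 35 of 82 were lower, against 24.9% of all named genes, and none was higher, against 20.6%.

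On this scale NM11 cells had a level of the group close to that of Colon26 cells, which was not so when scaled to Hprt or to E1A, the RNAs spiked into each sample as controls. The median log2 ratio of NM11 over Colon26 was -0.01, beside -0.02 over all named genes, with 39 genes above 0 and 43 below. Scaled to Hprt the median was -0.50, with 81 of 82 genes below 0 and 4 at least 2-fold lower, and scaled to the E1A controls it was -0.33, with 79 of 82 below 0 and 2 at least 2-fold lower. On the main scale, no ribosomal protein gene was 2-fold higher, against 8.34% of all named genes, or 2-fold lower, against 7.89%. The 7 genes higher by more than the scanner error (8.54%, against 30.6% of all named genes) were Rpl6, Rpl13a, Rpl22, Rpl28, Rpl39, Rps3 and Rps9, and 21 genes were lower (25.6%, against 34.9%). At 1.5-fold, Rpl22 alone was higher, against 15.8% of all named genes, and 4 genes were lower, against 17.1%.

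LuM1 over NM11, which shares its arrays with the other comparisons, had a median of -0.46 with 81 of 82 genes below 0, although scaling to Hprt turned this median to 0.13. All named genes had -0.11. Only Rps27l was at least 2-fold lower, 1 of 83 genes with a ratio, against 8.5% of all named genes, and none was 2-fold higher, against 11.1%. Scaling to Hprt or E1A, quantile normalization and the authors' values each left no gene 2-fold lower. By more than the scanner error 77 of 82 genes were lower, against 42% of all named genes, and none was higher, against 30.7%. At 1.5-fold, 26 genes were lower, against 20.5% of all named genes, and none was higher, against 19.1%. The exception to the direction was Rpl37, a zinc-binding protein of the large subunit.

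These values depend on how the arrays were brought to one scale. Another scaling moved all genes together, by 0.45 in LuM1 over Colon26 with the authors' processed values, by -0.49 in NM11 over Colon26 with Hprt and by 0.59 in LuM1 over NM11 with Hprt (log2). The difference between the median of the ribosomal protein genes and that of all named genes is the same under each scaling that multiplies an array by 1 factor, namely -0.39 for LuM1 over Colon26, 0.01 for NM11 over Colon26 and -0.36 for LuM1 over NM11. Quantile normalization, which gives every array the same distribution of values, changed these to -0.058, 0.073 and -0.097. Ribosomal protein genes were themselves 40, 33 and 37 of the 100 brightest genes in Colon26, LuM1 and NM11, so this step also evens out their own signals. Quantile normalization left Rpl39l and Rpl7l1 as the 2 genes past 2-fold between LuM1 and Colon26.

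The lower signals of LuM1 were not particular to ribosomal protein genes, since other bright probes were lower on that array too. When all named genes measured on all 3 arrays were split into 10 equal bins by mean signal, other genes had median log2 ratios between LuM1 and Colon26 of -0.01 in the dimmest bin, -0.15 in the sixth and -0.28 in the brightest, where 80 of the 82 ribosomal protein genes lay. For LuM1 over NM11 the same values were 0.03, -0.11 and -0.32. In NM11 over Colon26 all bins lay between -0.06 and 0.02. Among the brightest genes alone, with a mean signal of at least 81431, 104 other genes had a median of -0.24 in LuM1 over Colon26 and the 61 ribosomal protein genes had -0.48. For LuM1 over NM11 these were -0.24 and -0.44. The ratio of LuM1 to the other lines thus moved with brightness, whose part in the result was not tested. The ribosomal protein genes lay lower than other genes above the same signal, which were not matched to them in brightness. After quantile normalization the difference from all named genes was -0.058 in LuM1 over Colon26 and -0.097 in LuM1 over NM11.

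**Figure D2:**
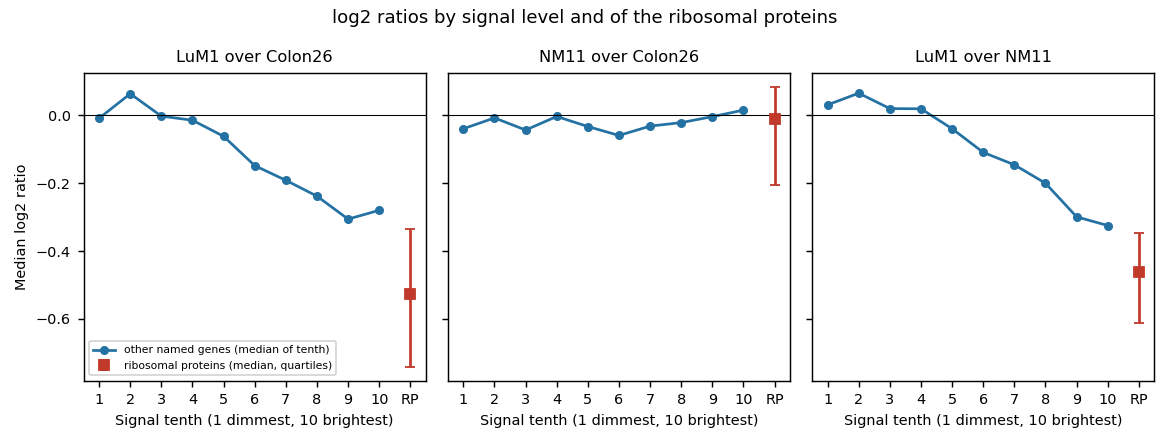
Median log2 ratio of the named genes other than ribosomal proteins in each of 10 bins of mean signal (blue, 1 dimmest to 10 brightest), and the median of the 82 ribosomal protein genes (red square, bars from the lower to the upper quartile). In LuM1 over Colon26 the blue medians went from -0.01 in the dimmest bin to -0.28 in the brightest and the ribosomal protein median was -0.53, while in NM11 over Colon26 all medians lay near 0. In LuM1 over NM11 the ribosomal protein median was -0.46, which scaling to Hprt turned to 0.13.

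Both subunits had like medians. The 43 genes of the large subunit had a median log2 ratio, LuM1 to Colon26, of -0.50, with 41 below 0, and the 30 genes of the small subunit had -0.51, with all 30 below 0. With the authors' values these medians were -0.052 and -0.068, with 16 of 43 and 12 of 30 genes above 0, and after quantile normalization they were -0.088 and -0.12. For NM11 over Colon26 the medians were 0.00 and -0.02, and -0.49 and -0.51 when scaled to Hprt. The 3 genes of the P stalk, the flexible arm of the large subunit that recruits the elongation factors, had a median of -0.38, which the authors' values turned to 0.06 and quantile normalization to 0.04. The 5 measured paralogs had -1.20, and -0.76 and -0.84 under those scalings.

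**Figure D3:**
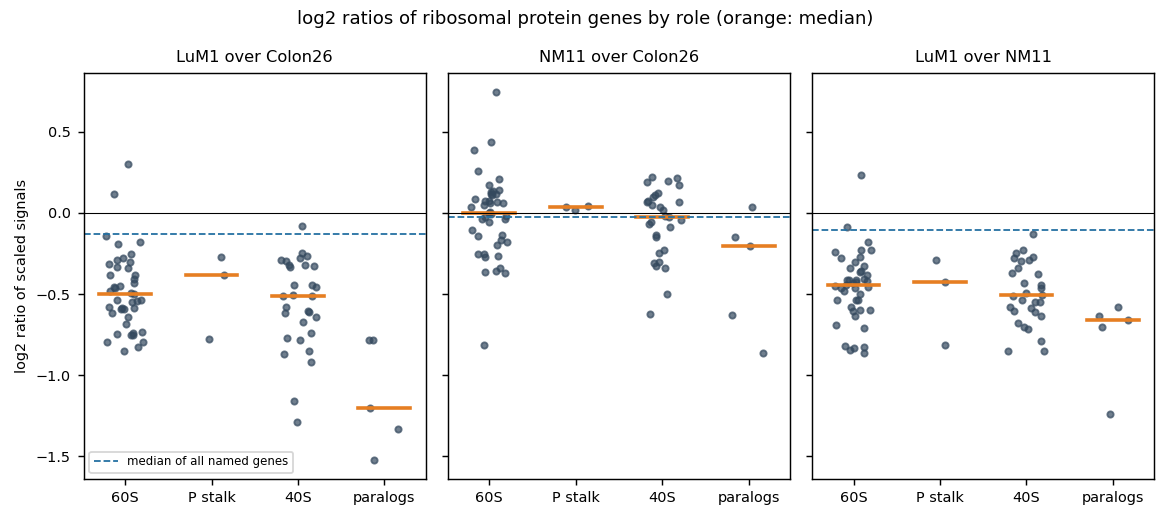
log2 ratio of each ribosomal protein gene measured on all 3 arrays, by role, for the 3 comparisons. Each point is 1 gene, orange bars are medians, the dashed line is the median of all named genes, and Rpl32l is not drawn. In LuM1 over Colon26 the medians were -0.50 for the large subunit, -0.38 for the P stalk (0.06 with the authors' values), -0.51 for the small subunit and -1.20 for the paralogs, and in NM11 over Colon26 they lay between -0.21 and 0.04. In LuM1 over NM11 they lay below 0, where scaling to Hprt turned the median of all ribosomal protein genes to 0.13.

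Within the P stalk, Rplp0, which anchors the stalk to the ribosomal RNA, had a signal of 177752 in Colon26, 136138 in LuM1 and 182857 in NM11. Its partner Rplp1 had 187208, 109207 and 192000, and Rplp2 had 217867, 180543 and 220460. The log2 ratios of LuM1 over Colon26 were -0.38, -0.78 and -0.27, so Rplp1 was the lowest of the 3, and its second probe gave -0.76. In NM11 all 3 lay on this scale close to Colon26, at 0.02 to 0.04, within the scanner error of 0.20.

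Among the large subunit genes, Rpl22, read by 1 probe, stood apart from the others. This RNA-binding protein had a signal of 23048 in Colon26, 28417 in LuM1 and 38693 in NM11, so both sublines were above the parent line. The log2 ratio was 0.30 ± 0.20 (scanner error) in LuM1 and 0.75 ± 0.20 in NM11, a ratio of 1.68 and the highest of all members in both comparisons. Under the scalings tried the LuM1 ratio stayed between 0.28 and 0.75 and the NM11 ratio between 0.26 and 0.78.

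Rpl39, a small protein that lines the exit tunnel of the nascent peptide, behaved likewise at a lower size. Its brightest probe had 120072 in Colon26, 130087 in LuM1 and 156851 in NM11. The log2 ratio was 0.12 in LuM1, within the scanner error of 0.20, and 0.39 in NM11, which fell to -0.10 when scaled to Hprt. On this scale all 5 of its probes gave the same order, from 0.12 to 0.28 in LuM1 and from 0.39 to 0.63 in NM11.

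Rpl28 had 95561 in Colon26, 86657 in LuM1 and 129272 in NM11, and Rpl13a, which is also known as a repressor of translation when released from the ribosome, had 69515, 57450 and 83200. Both were above Colon26 in NM11, with log2 ratios of 0.44 and 0.26, which scaling to Hprt turned to -0.052 and -0.23. In LuM1 they were at -0.14 and -0.28, which the authors' values turned to 0.31 and 0.17.

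Rpl5 and Rpl11 bind the ubiquitin ligase Mdm2 together with 5S ribosomal RNA and so link ribosome assembly to p53. Rpl5 had 39466 in Colon26, 29271 in LuM1 and 42524 in NM11, a log2 ratio of -0.43 in LuM1 and 0.11 in NM11 over Colon26. Rpl11 had 188078, 129260 and 195950, and log2 ratios of -0.54 and 0.06. On this scale LuM1 was the lowest and NM11 the highest for both genes, whereas scaling to Hprt put NM11 below Colon26, at -0.38 and -0.43, and the authors' values put Rpl5 in LuM1 0.015 above Colon26 (log2).

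Rpl23a, part of the docking site for factors at the exit tunnel, had 73542 in Colon26, 44260 in LuM1 and 80446 in NM11. With -0.86 it was the lowest large subunit gene in LuM1 over NM11, and it was at -0.73 in LuM1 over Colon26. Rpl32 had 179643, 142137 and 150888, so that LuM1 and NM11 differed little, with -0.09 on the log2 scale. Rpl32l, whose ratios lay near those of Rpl32, had 110405, 81715 and 90908. Its log2 ratio of LuM1 over Colon26 was -0.43 beside -0.34 for Rpl32, a difference within their error.

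Rpl37 was read by a single probe that was dim on every array, with 56.7 in Colon26, 38.0 in LuM1 and 32.3 in NM11, at percentiles of 48.1, 43.8 and 44.0. It was therefore the only gene of a subunit outside the bright range, and its log2 ratios of -0.58 in LuM1 and -0.81 in NM11 over Colon26 have errors of at least 0.30. Its ratio of LuM1 over NM11 was 0.24, and -0.03 after quantile normalization.

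In the small subunit, the largest differences were in Rps14 and Rps2. Rps14, a protein of the platform whose loss in a human blood disorder impairs red cell formation, had 193070 in Colon26, 79031 in LuM1 and 136664 in NM11. These values put LuM1 2.44-fold and NM11 1.41-fold lower than Colon26. Rps2, which lies near the entry of the mRNA channel, had 155753, 69708 and 101206, and was 2.23-fold lower in LuM1 and 1.54-fold lower in NM11. Rps14 was read by 1 probe. A second probe of Rps2 gave -1.37 beside -1.16 on the log2 scale in LuM1 and -0.68 beside -0.62 in NM11. With the authors' processed values the LuM1 log2 ratios were -0.84 for Rps14 and -0.71 for Rps2, short of 2-fold. For both genes NM11 lay between Colon26 and LuM1, except that scaling to Hprt put Rps2 in LuM1 0.05 above NM11 (log2).

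Rps15 and Rps26 differed on this scale in LuM1 alone, while scaling to Hprt put NM11 below Colon26 too, at -0.51 and -0.42. Rps15, of the subunit head, had 98564 in Colon26, 53847 in LuM1 and 97290 in NM11, and Rps26, of the mRNA exit channel, had 154931, 89995 and 162201. The log2 ratios of LuM1 over Colon26 were -0.87 and -0.78, and those of NM11 over Colon26 were -0.02 and 0.07. Rps6, the substrate of the S6 kinases, had 119134, 76388 and 125326, with -0.64 and 0.07. Rpsa, known both as a small subunit protein and as a laminin receptor, had 199130, 140195 and 192983, with -0.51 and -0.05.

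Paralogs and their parents differed in several pairs. Since both are read on the same arrays, this difference does not change when an array is multiplied by 1 factor. Probe sequences were not at hand, so it was not checked whether a probe also reads a related gene or a pseudogene. Rpl39l, Rpl22l1 and Rpl7l1 were each read by 1 probe on 1 spot. Rpl39l, best known from the male germ line, had 43159 in Colon26, 14997 in LuM1 and 23697 in NM11, so Colon26 was the highest and LuM1 the lowest. It was 2.88-fold lower in LuM1 and 1.82-fold lower in NM11. Relative to its parent Rpl39, the log2 ratio was lower by -1.64 ± 0.29 in LuM1 and by -1.25 ± 0.29 in NM11 (scanner error of both ratios combined).

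Rpl22l1, which can take the place of Rpl22 in the ribosome, had 63460 in Colon26, 36871 in LuM1 and 57225 in NM11. Its log2 ratio over Colon26 was -0.78 in LuM1 and -0.15 in NM11, against 0.30 and 0.75 for Rpl22. The difference from Rpl22 was -1.09 ± 0.29 and -0.90 ± 0.29. The signals of the pair thus moved in opposite directions in LuM1, while in NM11 the ratio of Rpl22l1 was within the scanner error of 0.20.

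Rps27l, a p53-induced paralog of the zinc-finger protein Rps27, had 51931 in Colon26, 22568 in LuM1 and 53288 in NM11, so on this scale it was low in LuM1 alone. Scaling to Hprt put NM11 at -0.45 over Colon26. Both of its probes showed this, with -1.20 and -1.26 in LuM1 and 0.04 and 0.11 in NM11 over Colon26. The ratio of LuM1 over Colon26 fell short of 2-fold with the authors' values, at -0.76, and after quantile normalization, at -0.84. That of LuM1 over NM11, -1.24, was -0.65 with Hprt, -0.92 with E1A, -0.94 after quantile normalization and -0.83 with the authors' values. Rps27 had 165953, 132492 and 172017. The difference between paralog and parent was -0.88 ± 0.29 in LuM1 over Colon26, -0.01 ± 0.29 in NM11 over Colon26 and -0.86 ± 0.29 in LuM1 over NM11.

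Rpl7l1, which is known from the nucleolus and the maturation of the large subunit, had 1563 in Colon26, 621 in LuM1 and 1012 in NM11, and Rpl7 had 140956, 102906 and 139120. The paralog was 2.52-fold lower in LuM1 than in Colon26, a log2 ratio of -1.33 that was -0.88 with the authors' values, short of 2-fold. Its difference from Rpl7 was -0.88 ± 0.29 in LuM1 and -0.61 ± 0.29 in NM11. Rpl36al had 25997, 15093 and 22535, and Rpl36a had 88302, 64672 and 73295. Their difference was -0.34 ± 0.29 in LuM1 and 0.06 ± 0.29 in NM11. It depends on the probe, since in LuM1 over Colon26 those of Rpl36a gave -0.45 (the brightest by mean log2 signal), -0.50 and -0.63. The probes of Rpl36al gave -0.78 (the brightest) and -0.82.

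Both remaining paralogs were at or near background. Rpl10l, the testis paralog of Rpl10, was not well above background on any array, with 5.47 in Colon26, 4.20 in LuM1 and 4.03 in NM11, while Rpl10 had 247140, 198324 and 240944. Rpl3l, the paralog of heart and skeletal muscle, was well above background only in NM11, with 26.5 beside 5.83 in Colon26 and 4.43 in LuM1, near the lowest measurable signal of 26.4 in Colon26 and 20.1 in LuM1. Rpl3 had 132392, 104885 and 139551. For completeness, Rps4x, the X-linked protein of the small subunit, had 103054, 64553 and 87774.

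**Figure D4:**
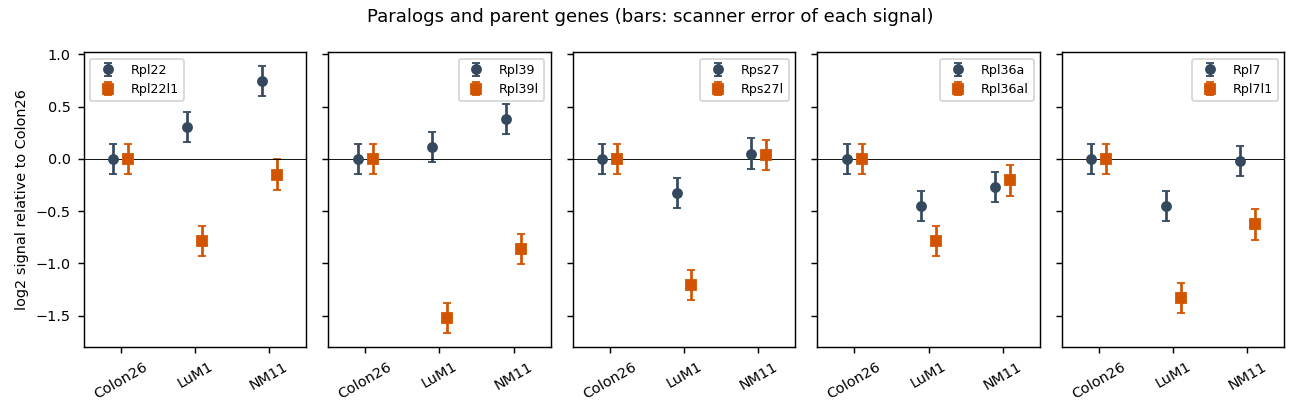
log2 signal relative to Colon26 of 5 paralogs (orange squares) and their parent genes (dark circles) in Colon26, LuM1 and NM11, with bars for the scanner error of each signal. Rpl39l lay at -1.53 in LuM1 and -0.86 in NM11 while Rpl39 lay at 0.12 and 0.39, and Rps27l lay at -1.20 in LuM1 and 0.04 in NM11, the latter -0.45 when scaled to Hprt.

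Probes of a gene mostly gave like ratios, though not always. In 44 genes with several measured probes the median range of the log2 ratios was 0.08 in LuM1 over Colon26, 0.07 in NM11 over Colon26 and 0.08 in LuM1 over NM11. The widest range in LuM1 over Colon26 was 0.55, in Rpl7a. For the 39 genes with 1 probe, among them Rpl39l, Rpl7l1, Rpl22l1, Rpl22 and Rps14, no such range could be seen. Probes of a gene are not replicates, but 59 probes of ribosomal proteins were printed on 10 spots each, and their spots varied by a median SD of 0.036, 0.038 and 0.033 (log2) on the Colon26, LuM1 and NM11 arrays. For Rps24, which is spliced into several transcripts, the probe assigned to one RefSeq transcript had 79236 in Colon26, 84632 in LuM1 and 107730 in NM11. The brightest probe, assigned to another transcript, had 166073, 138368 and 151314. Their log2 ratios of NM11 over Colon26 were 0.44 and -0.13, while the remaining probe, of a further transcript, gave -0.11. That was the widest range in NM11 over Colon26, 0.58.

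Several of the brightest genes had probes that differed in LuM1 over Colon26. For Rps18, the log2 ratio was -0.32 at the brightest probe and -0.71 and -0.71 at the other two. Rps10 gave -0.44 and -0.83, and Rpl41, a very short peptide of the large subunit, gave -0.54 and -1.05. In these 3 genes the brightest probe had the smaller difference, whereas in Rpl7a the brightest probe gave -0.83 and the other -0.28. All probes of these 4 genes were lower in LuM1 than in Colon26.

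**Figure D5:**
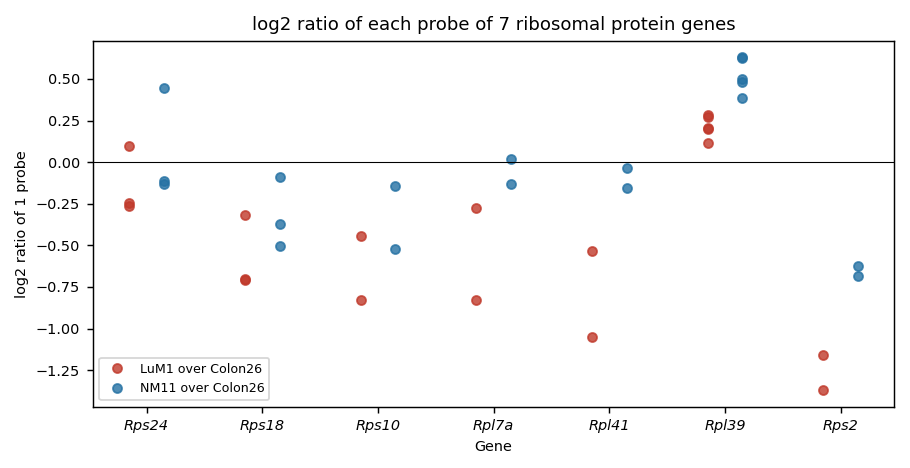
log2 ratio of each probe of 7 ribosomal protein genes in LuM1 over Colon26 (red) and NM11 over Colon26 (blue). Each point is 1 probe, and the probes of Rps24 lay on both sides of 0 in NM11, at 0.44, -0.11 and -0.13. On this scale all 5 probes of Rpl39 lay above 0 in both comparisons, from 0.39 in NM11 over Colon26. Scaling to Hprt shifts the ratios of NM11 over Colon26 by -0.49.

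Ribosomal proteins whose symbols fall outside the naming rule followed the same pattern. Fau, which is made as a fusion with a ubiquitin-like protein, had 241030 in Colon26, 183168 in LuM1 and 216823 in NM11. Rps3a1 had 108796, 86268 and 110854. Rack1, the scaffold protein on the small subunit, had 184078, 149024 and 192580. On this scale LuM1 was the lowest in these 3 genes, whereas scaling to Hprt or the authors' values put it above NM11 in all 3. Their log2 ratios of LuM1 to Colon26 were -0.40, -0.33 and -0.30, and the authors' values, which shift all genes by 0.45, turned them above 0.

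Other genes of the same machinery were counted by list. Ribosome assembly factors and genes of ribosomal RNA synthesis had a median of -0.90 in LuM1 over Colon26, and 15 of 41 were at least 2-fold lower, against 11.8% of all named genes, and none higher, against 13.1%. Under other scalings this median lay between -0.92 and -0.46, the latter with the authors' values, which left 3 genes 2-fold lower. After quantile normalization, where the median of the ribosomal proteins was -0.11, that of the assembly factors was -0.73 with 11 genes lower. Among them Nhp2 and Dkc1, of the pseudouridylation complex, had log2 ratios of -1.63 and -1.47. Of the methylation complex, Nop56 was at -1.39, Nop58 at -0.78 and Fbl at -0.63. Rrp9, which joins the same class of particle for early processing, was at -1.80. The authors' values shift all of these ratios up by 0.45. In LuM1 over NM11 the median of the assembly factors was -0.85, with 14 of 41 at least 2-fold lower, against 8.5% of all named genes. Scaling to Hprt gave -0.26 there, with 1 gene lower. In NM11 over Colon26 the median was -0.07, with 1 gene, Nmd3, 2-fold higher at 1.13, against 8.34% of all named genes. Scaled to Hprt this median was -0.56, with 7 genes 2-fold lower and none higher, and scaled to E1A it was -0.38, with 2 lower and none higher.

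Mitochondrial ribosomal proteins, which build the separate ribosome of mitochondria, had a median of -0.36 in LuM1 over Colon26, which the authors' values turned to 0.09, with 1 of 78 genes 2-fold lower, against 11.8% of all named genes, and none higher, against 13.1%. In LuM1 over NM11, 5 of 78 were 2-fold lower, against 8.5%, and in NM11 over Colon26, 3 of 78 were 2-fold higher, against 8.34%. Scaling to Hprt left none lower in the former and none higher in the latter, where 5 were then lower. In LuM1 over Colon26 their quartiles, -0.60 and -0.07, spanned a wider range than those of the cytosolic set. Elongation factors and other genes of TOP mRNAs had -0.33 in LuM1 over Colon26, turned to 0.11 by the authors' values, with none of 22 at least 2-fold lower, against 11.8% of all named genes, or higher, against 13.1%. In LuM1 over NM11, 4 of 22 were 2-fold lower, against 8.5%, namely Npm1, Nap1l1, Ybx1 and Cct4 with -1.14, -1.28, -1.11 and -1.08. None was so when scaled to Hprt or E1A, after quantile normalization or with the authors' values. The list had a median of 0.20 in NM11 over Colon26, turned to -0.29 by Hprt, with 18 of 22 above 0. Eef2, which moves the ribosome along the mRNA, had 126743 in Colon26, 70587 in LuM1 and 139098 in NM11. Pabpc1, the poly(A)-binding protein, had 59418, 67285 and 65649, and it was above Colon26 in LuM1 with 0.18, within the scanner error.

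Of 14 regulators of ribosomal protein synthesis, 2 were at least 2-fold below Colon26 in LuM1, against 11.8% of all named genes, and none was higher, against 13.1%. With the authors' values or quantile normalization none was 2-fold lower. Myc, the transcription factor that drives ribosome production, had 5957 in Colon26, 2653 in LuM1 and 5212 in NM11. Eif4ebp1, the translation repressor that mTOR phosphorylates, had 70548, 32462 and 51224. Their log2 ratios were -1.17 and -1.12 in LuM1 and -0.19 and -0.46 in NM11 over Colon26. Larp1 had 14845, 8538 and 15295, and Mtor had 452, 438 and 376. Their log2 ratios of LuM1 over Colon26 were -0.80 and -0.05, on a scale that the authors' values shift by 0.45. Other genes had medians of -0.28 in the brightest bin, where Larp1 lay, and -0.01 in the fourth, where Mtor lay.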

How the data were processed

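RNA of Colon26, LuM1 and NM11 cells was measured on 1 single-colour Agilent array per line. The authors deposited, per the file headers, the intensity of the spots, made with Feature Extraction 11.5.1.1 and background-corrected and detrended without scaling between arrays, with flags for outliers and spots well above background, and a table of processed intensity values that are a fixed multiple of the scanner values on each array. The multiple was 0.654 (Colon26), 0.829 (LuM1) and 0.706 (NM11). A step that gave these factors was not stated in the sources used here. The number of arrays limits the precision.

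Control and outlier spots (137, 74 and 99 in that order of lines) were left out, repeated spots averaged, and each array scaled to its 75th percentile over spots. A gene was read by its probe with the highest mean log2 signal. A probe not well above background gave only a bound, set at its signal or, if larger, at the array's lowest signal well above background. Names came through RefSeq accessions of GRCm38.p6 for 32994 of 56605 probes (58.3%), and other probes were not used. The array design is older, so no coordinates are given for probes. The error of a log2 ratio combines the scanner software's errors of both signals. It ranged from 0.20, its value for bright probes, to 0.32 over the measured ribosomal protein genes and leaves out the scaling between arrays. With 1 array per line no test was run. A call was a 2-fold ratio, bounds included. The script was tested on simulated data.

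The members and lists were chosen with earlier results of these data known. The genes named were the 4 highest and 4 lowest ratios in each comparison, all past 2-fold, the paralogs with parents, the P stalk, Rpsa, Rpl5, Rpl11, Rps6 and the ribosomal proteins outside the rule. The single values of 2 of these genes are not reported here. Genes of other lists, and Rps18, Rps10, Rpl41 and Rpl7a as probe examples, were chosen after their values were seen. Alternatives were other scalings (none, median, Hprt, E1A spike-in controls, quantile, the authors' values), normexp with an offset of 50 run on the median spot brightness, no or a looser dim filter, other choices of probe, outliers kept and a 1.5-fold threshold. The 75th percentile over probes was added after seeing the data. Python 3.11.15 with numpy 2.4.6 and pandas 2.3.3, and R 4.3.3 with limma 3.58.1, were used.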

Additional observations from a re-analysis of the deposited data

How the results depend on the processing

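No paired analysis was possible because each line had 1 array, so no replicate could be left out either. The values below are the median log2 ratio of the ribosomal protein genes, its difference from the median of all named genes, and counts of genes past 2-fold. Scaling to Hprt gave a median of -0.50 with 4 genes lower in NM11 over Colon26, and 0.13 with 0 lower in LuM1 over NM11, a change of sign. E1A spike-in controls gave -0.33 with 2 lower and -0.14 with 0 lower in the same comparisons. Quantile normalization gave -0.11, a difference of -0.058 and 2 lower in LuM1 over Colon26, and -0.13, a difference of -0.097 and 0 lower in LuM1 over NM11. The authors' values gave -0.079 with 1 lower in LuM1 over Colon26 and -0.049 with 0 lower in LuM1 over NM11, and they split all named genes of LuM1 over Colon26 into 3038 higher and 874 lower, against 1856 and 1679. Without a filter on dim probes the difference was -0.18 in LuM1 over Colon26 and 0.24 in NM11 over Colon26, where 1 gene was higher, and 2 were lower in LuM1 over NM11. The looser filter gave the same 1 higher and 2 lower. At 1.5-fold, 35 genes were lower in LuM1 over Colon26, 1 higher and 4 lower in NM11 over Colon26, and 26 lower in LuM1 over NM11. The cause was not tested. The other 137 values of this kind moved by less than the scanner error or stayed within 1.5 times the count. Of the log2 ratios of single genes, 297 moved by more than the scanner error and 1126 did not.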
